A study of Mus musculus with 4 samples.

Results

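The 7 genes described here, Alpl, Lepr, Corin, Enpp2, Prom1, Ptn and Mdk, are markers of the dermal papilla, the cluster of mesenchymal cells at the base of the hair follicle. They were chosen by gene symbol among the 51826 genes of the deposited count table, and each symbol matched 1 row. Of the 7, Ptn, Mdk, Enpp2 and Alpl reached a mean of at least 10 counts over the libraries, the minimum for a fold change to be read here, as did 16734 genes in all. Alpl lay just inside that minimum with a mean of 11.75 counts, and Lepr just outside it with 9.25. Alpl reached the minimum only through passage 3 DSCs, the library in which it was highest, so its place among the 4 genes in comparisons with that library is a description. Prom1 and Corin had means of 4 and 3.5 counts.

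RNA was sequenced from cultured cells of the papilla (DPCs) and of the surrounding dermal sheath (DSCs). The source was the vibrissa (whisker) follicle of C57BL/6J mice that carried an EGFP transgene and were between 5 and 6 weeks of age, and the labels give the genotype as WT. Cells of each type were taken at passage 3 and at passage 9, and no group received another agent. Each of the 4 combinations was 1 library, so no difference below has a replicate check. All groups were cultures in DMEM with serum, away from the epithelium of the follicle. How many animals went into a culture was not given in the sources used here. Passage cannot be told apart from anything else that differed between the cultures taken at passage 3 and at passage 9. The total count was between 34981284 and 47604059 per library, of which the 7 genes together took 384 counts in passage 3 DPCs, 2328 in passage 9 DPCs, 250 in passage 3 DSCs and 620 in passage 9 DSCs.

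The dermal papilla instructs the overlying epithelium to grow hair, and the dermal sheath around the follicle is a source from which the papilla is renewed. Papilla cells lose hair-inducing ability in culture, and markers such as alkaline phosphatase are used to follow their identity. The 7 genes encode proteins of different kinds. Ptn (pleiotrophin) and Mdk (midkine) are the members of a small family of secreted heparin-binding growth factors. Enpp2 encodes autotaxin, a secreted enzyme that makes lysophosphatidic acid. Alpl encodes tissue-nonspecific alkaline phosphatase, a phosphatase anchored at the cell surface. Lepr is the leptin receptor, Corin a membrane serine protease that activates natriuretic peptide precursors and acts on coat colour through the agouti pathway, and Prom1 (CD133) a membrane protein of cell protrusions.

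All 7 genes are protein coding, and positions are on mouse build GRCm38. Ptn (ENSMUSG00000029838) lies on chromosome 6, 36714929 to 36810220, and Mdk (ENSMUSG00000027239) on chromosome 2, 91929805 to 91932297. Enpp2 (ENSMUSG00000022425) lies on chromosome 15, 54838898 to 54920146, a position that differs from that in GENCODE M21, and Alpl (ENSMUSG00000028766) on chromosome 4, 137741733 to 137796384. Lepr (ENSMUSG00000057722), on the plus strand while the other genes are on the minus strand, shares chromosome 4, at 101717404 to 101815352. Corin (ENSMUSG00000005220) and Prom1 (ENSMUSG00000029086) share chromosome 5, at 72300025 to 72504473 and at 43993620 to 44102032. Genes annotated over Corin, Enpp2 and Prom1 had 0 counts in every library, and none overlaps the other 4, so no counted neighbour shares their reads.

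The 250 bases before the annotated start were read from RefSeq windows on GRCm38.p6 for the 5 members that have one, in 8 windows. The windows of Ptn, the member with the highest level, and of Alpl, the classical papilla stain with a low level here, are shown 5′ to 3′ on the minus strand, the strand of both genes, with matches to the motifs below in capitals. The RefSeq start of Ptn lies inside the gene as the deposited table places it, so the last 41 bases of its window are left out and the 209 bases before both starts are shown. The stretch shown is chr6:36810221-36810429 for Ptn and chr4:137796385-137796634 for Alpl.
Ptn: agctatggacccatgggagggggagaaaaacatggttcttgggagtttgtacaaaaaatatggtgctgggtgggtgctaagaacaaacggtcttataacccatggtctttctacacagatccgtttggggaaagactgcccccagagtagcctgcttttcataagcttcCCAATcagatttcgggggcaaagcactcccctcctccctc
Alpl: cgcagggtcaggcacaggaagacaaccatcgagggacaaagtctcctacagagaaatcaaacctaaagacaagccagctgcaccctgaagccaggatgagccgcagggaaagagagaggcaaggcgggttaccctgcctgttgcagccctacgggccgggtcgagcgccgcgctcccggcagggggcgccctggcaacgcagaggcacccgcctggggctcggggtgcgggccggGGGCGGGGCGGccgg
The whole Ptn window held 52% G and C and 1 match to the CCAAT box (CCAAT), 81 bases before the RefSeq start. The Alpl window, before the first of its 2 annotated starts, held 68.4% G and C and 2 overlapping matches to the GC box (GGGCGG), 15 and 10 bases before the start. Neither held the TATA box (TATAAA) or the Lef1/Tcf core (ATCAAAG). Both strands were searched, and no motif overlaps another of the 4 by its letters in these windows. Among 32851 windows of the same length, 33.8% held CCAAT, 32.7% GGGCGG, 12.4% TATAAA and 3.21% ATCAAAG. Such matches are descriptions of sequence.

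On the scale of FPKM (read fragments divided by the length of the transcript and the depth of the library), which allows levels of different genes to be compared, Ptn was the highest of the 7 and Mdk the next in every library. Ptn stood at 4.76 FPKM in passage 3 DPCs, 30.3 in passage 9 DPCs, 1.85 in passage 3 DSCs and 5.44 in passage 9 DSCs. Mdk stood at 0.399, 5.74, 1.5 and 2.73 FPKM in the same order. The distance between the family members was not constant, since the ratio of Ptn to Mdk in FPKM was 11.9 in passage 3 DPCs, 5.27 in passage 9 DPCs, 1.23 in passage 3 DSCs and 1.99 in passage 9 DSCs. Enpp2 came next in 3 libraries and Alpl in passage 3 DSCs, at 0.264 FPKM from 23 counts beside 0.230 from 34 counts for Enpp2. The transcript length implied by the count and FPKM of Alpl was 2248 bases in that library. It was between 2927 and 3235 in the others, so this order is not firm. Ptn, Mdk and Enpp2 together held between 92.3% and 99.5% of the summed FPKM of the 7 genes.

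Set against the 16734 genes with enough counts, the markers lay under the median at passage 3. The median FPKM of the 16734 genes was 5.47 in passage 3 DPCs and 5.26 in passage 3 DSCs, and all 7 markers lay under it. At passage 9 the median was 5.39 in DPCs, where Ptn and Mdk were above it, and 5.14 in DSCs, where Ptn was above it. Among genes with any FPKM in the library, a wider set, Ptn lay above the median at passage 3. It was at percentile 60.3 in passage 3 DPCs and 50.1 in passage 3 DSCs, and its highest was 90.3 in passage 9 DPCs. Alpl, Lepr, Prom1 and Corin, the membrane and cell surface markers, stayed at or under percentile 31.1 in all libraries.

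**Figure D1:**
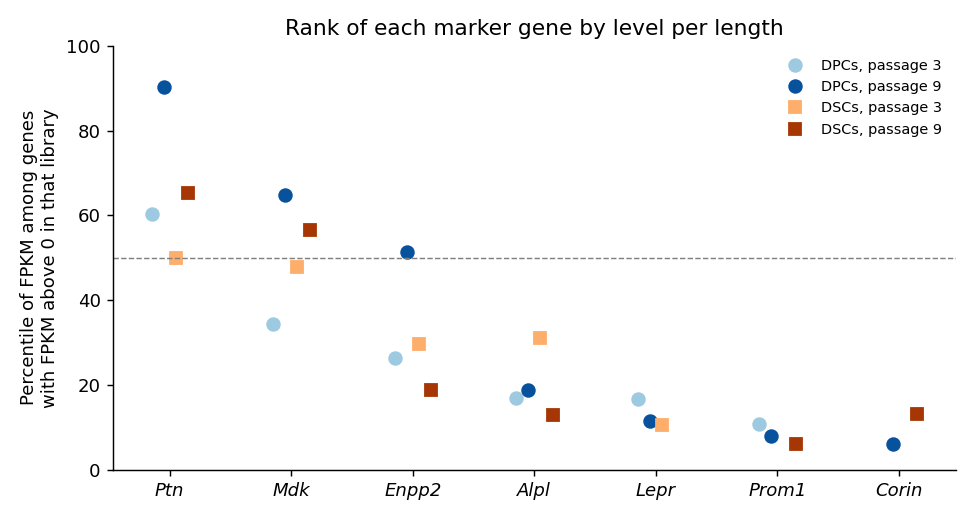
Percentile of the FPKM of each marker gene (vertical axis, 0 to 100) among genes with FPKM above 0 in the same library, with a point for each library in which the gene had counts and a dashed line at the median. Ptn in passage 9 DPCs, at 90.3, is the highest point, and Alpl, Lepr, Prom1 and Corin lie at 31.1 or under.

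For changes within a gene, counts were scaled to CPM (counts scaled by library depth, on a common scale) with edgeR's TMM factors, and log2 changes used a prior count of 2. A change of at least 4-fold, the threshold of the study, is a log2 change of 2 or more. Each change carries a 95% interval of counting error, which compares 2 libraries and not 2 conditions. The first question was what happened to the markers as DPCs were expanded from passage 3 to passage 9. Of the 4 genes with enough counts, Ptn, Mdk and Enpp2 were at least 4-fold higher at passage 9 and 0 were 4-fold lower. Over all 16734 genes, the share at least 4-fold higher was 5.58% and that of genes lower by as much was 4.36%. The counting interval left out 0 for the same 3 genes, as it did for 77.6% of all genes, so at this depth the interval says little on its own.

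In DSCs the same comparison gave 0 of the 4 genes past 4-fold in either direction, against 2.67% of all genes higher and 1.16% lower. The counting interval left out 0 for Ptn, Mdk and Enpp2, against 66.7% of all genes. It also did for Alpl, which is a description, since Alpl reached the count minimum only through passage 3 DSCs. Ptn and Mdk were higher at passage 9, while Enpp2 and Alpl were lower. The second question was how DPCs and DSCs differed at a given passage. At passage 3, 0 of the 4 genes were 4-fold apart, with 1.52% of all genes past 4-fold in favour of DPCs and 2.77% in favour of DSCs. The interval left out 0 for Ptn and Mdk and not for Enpp2, against 59.5% of all genes. It also left out 0 for Alpl, again a description. At passage 9, Ptn and Enpp2 were at least 4-fold higher in DPCs, against 2.5% of all genes, 0 of the 4 were 4-fold lower, against 3.91%, and the interval left out 0 for 3 of the 4, against 70.7%. These comparisons share libraries with each other, so the shares are not independent.

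**Figure D2:**
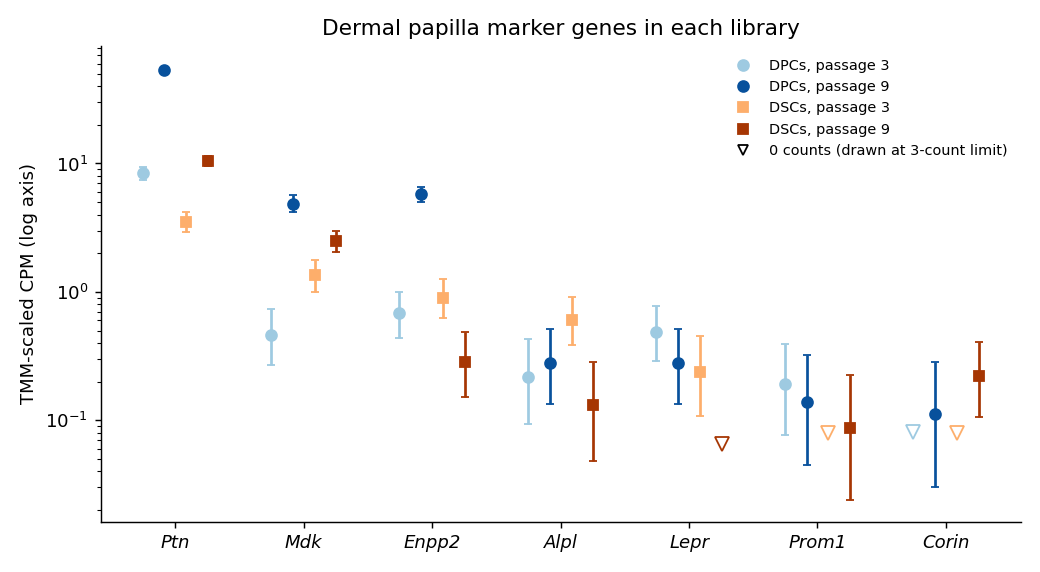
TMM-scaled CPM (vertical log axis) of the 7 marker genes in the 4 libraries, each point a library with its exact Poisson 95% interval, which covers counting error only. Open triangles mark a count of 0 and are drawn at the limit of 3 counts. Ptn, Mdk and Enpp2 are highest in passage 9 DPCs, at 53.4, 4.88 and 5.77 CPM, while the other 4 genes are at 0.607 CPM or under everywhere.

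Among the secreted growth factors, Ptn had 309 counts in passage 3 DPCs, 1917 in passage 9 DPCs, 133 in passage 3 DSCs and 474 in passage 9 DSCs. In CPM these were 8.40, 53.4, 3.51 and 10.4. Passage 9 DPCs stood far above the other libraries, and the intervals of no pair of libraries overlapped, with 7.49 to 9.39 in passage 3 DPCs and 9.49 to 11.4 in passage 9 DSCs as the nearest. The log2 change with passage was 2.66 in DPCs (95% interval 2.50 to 2.85) and 1.55 in DSCs (1.29 to 1.86). The change in DPCs was larger than that in DSCs by 1.11 (0.78 to 1.43). DPCs exceeded DSCs by 1.25 (0.96 to 1.56) at passage 3 and by 2.35 (2.21 to 2.51) at passage 9. Of the 7 genes, Ptn was thus the one that was higher at passage 9 in both cell types and higher in DPCs at both passages with intervals that left out 0.

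Mdk had 17 counts in passage 3 DPCs, 175 in passage 9 DPCs, 51 in passage 3 DSCs and 113 in passage 9 DSCs, or 0.462, 4.88, 1.35 and 2.48 CPM. Passage 3 DPCs were the lowest library and passage 9 DPCs the highest, so the order of the cell types turned between the passages. The log2 difference of DPCs from DSCs was -1.44 (-2.43 to -0.73) at passage 3 and 0.96 (0.63 to 1.33) at passage 9. With passage, Mdk was higher by 3.26 (2.68 to 4.21) in DPCs, rank 343 from the top of all 16734 genes, and its change in DSCs was 0.86 (0.39 to 1.39). The change in DPCs exceeded that in DSCs by 2.41 (1.55 to 3.26). The transcript length implied by its count and FPKM was 1204 bases in passage 3 DPCs and between 869 and 875 in the other libraries, so its FPKM changes by more in DPCs than its count does. For Ptn this length stayed between 1811 and 1857.

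Enpp2, the secreted lysophosphatidic acid enzyme, had 25 counts in passage 3 DPCs, 207 in passage 9 DPCs, 34 in passage 3 DSCs and 13 in passage 9 DSCs. In CPM these were 0.679, 5.77, 0.897 and 0.285. A single library, passage 9 DPCs, held most of its reads, and passage 9 DSCs were the lowest. At passage 3 the cell types differed by -0.38 (-1.21 to 0.39), an interval that includes 0. At passage 9 DPCs exceeded DSCs by 4.11 (3.53 to 5.27), which placed Enpp2 at rank 70 of all genes. The passage change was 2.99 (2.48 to 3.75) in DPCs and -1.49 (-2.70 to -0.69) in DSCs, so the changes had opposite signs. They lay 4.49 apart (3.40 to 5.57), also rank 70 from the top of all genes for a difference between the cell types. On log2 FPKM with a pseudocount of 1, Enpp2 was under 4-fold, at 1.28 with passage in DPCs and 1.42 between the cell types at passage 9. The transcript length implied by its count and FPKM was 3165 bases in passage 9 DPCs and between 3813 and 3910 in the other libraries. Of the 4 genes with enough counts, Enpp2 and Mdk had passage changes more than 4-fold apart between the cell types, as did Alpl, which reached the count minimum only through passage 3 DSCs. Over all genes the share was 7.48% in either direction.

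**Figure D3:**
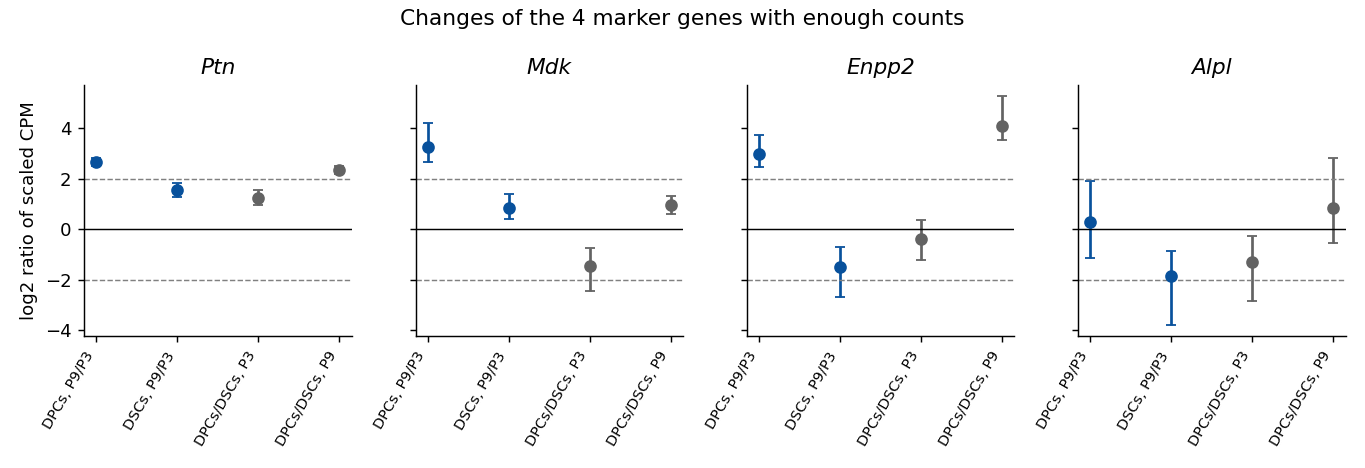
Log2 ratios of scaled CPM (vertical axis) of Ptn, Mdk, Enpp2 and Alpl in the 4 comparisons, passage 9 over passage 3 within DPCs and DSCs (blue) and DPCs over DSCs at passages 3 and 9 (grey). Bars are 95% counting intervals and dashed lines mark 4-fold. In DPCs the passage ratios of Ptn, Mdk and Enpp2, at 2.66, 3.26 and 2.99, lie above the upper dashed line.

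Alpl, the phosphatase behind the usual papilla stain, had 8 counts in passage 3 DPCs, 10 in passage 9 DPCs, 23 in passage 3 DSCs and 6 in passage 9 DSCs. In CPM these were 0.217, 0.279, 0.607 and 0.132, and the highest library was one of sheath cells. The interval in that library overlapped those of both DPC libraries, and the intervals of the other 3 libraries overlapped each other. Only the difference between the DSC libraries is resolved by these intervals of single levels. In DPCs the passage change was 0.30 (-1.13 to 1.90), and no change was detectable at these counts. In DSCs it was -1.85 (-3.79 to -0.87), and with a prior count of 0.5 it passed 4-fold, at -2.10. DPCs differed from DSCs by -1.29 (-2.85 to -0.27) at passage 3 and by 0.85 (-0.52 to 2.82) at passage 9. The passage changes lay 2.14 apart (0.33 to 3.95). If both mates of each read pair were counted, as the excess of even counts in these libraries allows (1339 genes with 2 counts and 583 with 3 in passage 3 DPCs), the independent counts are fewer. With counts halved in that way, the intervals at passage 3 and for the difference between the cell types include 0.

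Lepr had 18 counts in passage 3 DPCs, 10 in passage 9 DPCs, 9 in passage 3 DSCs and 0 in passage 9 DSCs. Passage 3 DPCs held the most reads and passage 9 DSCs none. With 0 counts, a level of up to 3 counts, or 0.0658 CPM, is possible in that library. The level of Lepr was 3.6 times that limit in passage 3 DSCs and 4.23 times in passage 9 DPCs. The counting interval of the log2 change in DSCs reached up to -1.25. That of DPCs over DSCs at passage 9 reached down to 1.51. The ratios to the limit were 1.80 and 2.12 where both mates were counted, and with halved counts the interval of the change in DSCs includes 0. In DPCs its change was -0.71 (-2.09 to 0.38), and DPCs over DSCs at passage 3 gave 0.9 (-0.19 to 2.38).

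Prom1 had 7, 5, 0 and 4 counts, in the order passage 3 DPCs, passage 9 DPCs, passage 3 DSCs and passage 9 DSCs. At passage 3 its level in DPCs was 2.40 times the limit in DSCs, or 1.20 times where both mates were counted. The counting interval of this log2 difference reached down to 0.57, or 1.49-fold. With halved counts that interval includes 0, as did the other intervals of Prom1 with all counts. Corin had 0, 4, 0 and 10 counts in that order, so it was seen at passage 9 alone in both cell types. In DSCs its level at passage 9 was 2.77 times the limit at passage 3, or 1.39 times where both mates were counted. The counting interval of this log2 change reached down to 0.90, or 1.87-fold, and with halved counts it includes 0. In passage 9 DPCs the level was 1.37 times the limit, or 0.68 times where both mates were counted, and the interval with all counts includes 0. For both genes each library held at most 10 counts, so orders among the libraries with counts are not resolved.

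Effects shared by both cell types or both passages were estimated with an additive model over all 4 libraries. With 1 residual degree of freedom, the error of this fit is the disagreement between the DPC and DSC responses, since there were no replicate cultures. edgeR's quasi-likelihood test called 0% of the genes (0 of 16734) for passage and 0% for cell type at a Benjamini-Hochberg adjusted p under 0.05, with 2822 and 1381 genes at an unadjusted p under 0.05. For passage, Ptn had a log2 effect of 2.13 (adjusted p = 0.188) and Mdk 2.09 (adjusted p = 0.295) in edgeR. Enpp2, with its opposite changes, had 0.84 (adjusted p = 0.775) and Alpl -0.94 (adjusted p = 0.621). For cell type, Ptn had 1.82 (adjusted p = 0.239) in edgeR, and the adjusted p of the other 3 was 0.898 or more. With DESeq2's Wald test, 955 genes were called for passage and 496 between the cell types. Among the marker genes it called Ptn, with an adjusted p of 9.98e-05 for passage and 0.00164 for cell type.

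The genes whose pattern over the 4 libraries was closest to a marker were sought among 12192 genes with a mean of at least 100 counts, by the Euclidean distance of log2 CPM centred on each gene's mean. With 4 libraries such distances describe these libraries alone. Closest to Ptn were Wnt2b (distance 0.225), a Wnt ligand, Etv1 (0.316), an ETS transcription factor, and Cd24a (0.390), a cell surface glycoprotein. Closest to Mdk were Epb41l4b (0.111), Lif (0.295), a cytokine of the interleukin 6 family, and Nlrc3 (0.351). Closest to Enpp2 were Cacnb4 (0.436), a calcium channel subunit, Igfbp3 (0.526), an insulin-like growth factor binding protein, and Slco4a1 (0.581), an organic anion transporter. Close to Alpl were Znrd1as (0.187) and Npnt (0.363), a matrix ligand of integrins. Between the markers themselves the distance was 2.14 for Ptn and Mdk, 2.17 for Enpp2 and Ptn, and between 2.69 and 3.56 for the other pairs. The nearest of many genes are bound to lie closer than a given pair, so these values are not compared.

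Other genes used as dermal papilla markers or regulators were set beside these. Of 31 such genes, 28 had enough counts. In DPCs, Nog, Notum, Itga8 and Igfbp3 were at least 4-fold higher at passage 9, against 5.58% of all genes. Lef1, Bmp4, Sostdc1, Hey1 and Prdm1 were lower by as much, against 4.36%. The list median log2 change was 0.15, against 0.03 over all genes. Notum had 127 counts in passage 9 DPCs and Sostdc1 61 in passage 3 DPCs, with 4 or fewer in every other library. Each reached the count minimum only through that library, so its place in the tallies of this list is a description. In DSCs, Fgf10, Crabp1 and Itga8 were at least 4-fold higher and 0 lower, against 2.67% and 1.16% of all genes. The list median there was 0.20 against 0.00. Between the cell types at passage 3, 8 were past 4-fold in favour of DPCs and 2 in favour of DSCs, against 1.52% and 2.77% of all genes. At passage 9 these numbers were 4 and 7, against 2.5% and 3.91%. Lef1, a Wnt effector, had 508 counts in passage 3 DPCs and 2 in passage 9 DPCs, a log2 change of -7.02 (-11.00 to -6.09). Bmp4, a BMP ligand, and Prdm1, a transcriptional repressor, had changes of -3.89 and -3.95 in DPCs. Itga8, an integrin subunit, was higher in both cell types, by 2.38 in DPCs and 3.53 in DSCs. Ptn, Mdk and Enpp2 thus stood with the 4 higher genes, Notum included, in the same library in which 5 other papilla genes, Sostdc1 included, were lower.

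**Figure D4:**
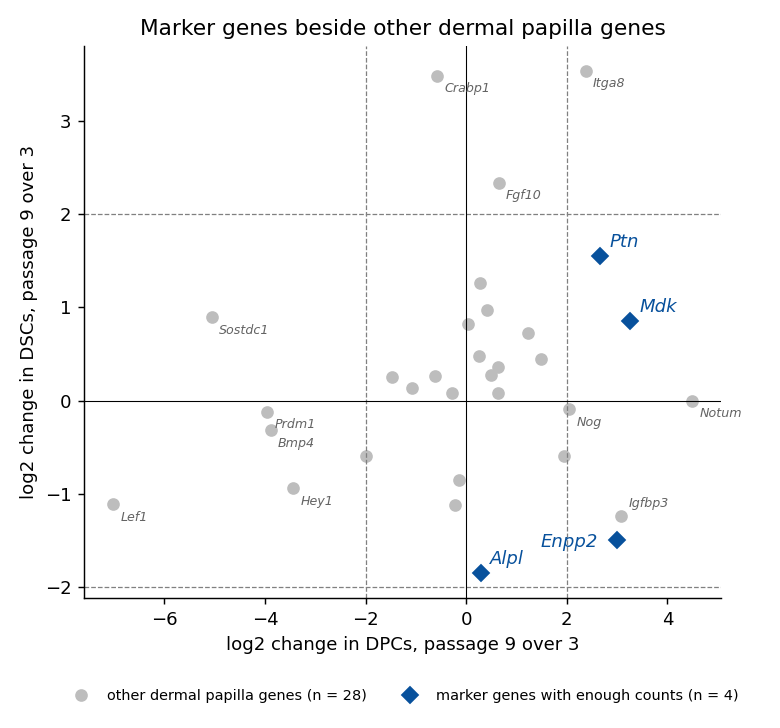
Log2 change from passage 3 to passage 9 in DPCs (horizontal axis) and in DSCs (vertical axis) of 4 marker genes (blue diamonds) and 28 other dermal papilla genes (grey circles), with dashed lines at 4-fold and names for genes past them. Ptn and Mdk lie to the upper right, Enpp2 to the lower right at 2.99 and -1.49, and Lef1 at the far left at -7.02.

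The receptors and partners of the markers were counted from lists. The shares to set beside each list below are those of all genes with passage. In DPCs 5.58% were at least 4-fold higher and 4.36% lower, and in DSCs 2.67% and 1.16%. Of 16 receptors and binding partners of Mdk and Ptn, 14 had enough counts, and in DPCs 0 were at least 4-fold higher and 1 was lower at passage 9. That gene, Itga6, an integrin subunit, had a log2 change of -3.72, from 455 to 32 counts. In DSCs 1 was higher, Itga4, another integrin subunit, by 2.88. Ptprz1, the best known receptor of both ligands and named here after its values were seen, had 1088 counts in passage 3 DPCs, 309 in passage 9 DPCs, 2214 in passage 3 DSCs and 3569 in passage 9 DSCs. It was thus lowest in the library in which Ptn and Mdk were highest, with a change of -1.77 (-1.97 to -1.60) in DPCs. Ptprz1 does not stand for the list, whose median change in DPCs was 0.27, against 0.03 over all genes. Nrp1 and Sdc4, for example, were higher there by 1.56 and 1.33. Alk, the other classical receptor and also named after its values were seen, had 0 counts in 3 libraries and 2 in passage 9 DSCs.

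Of 9 lysophosphatidic acid receptors and phosphatases, the genes that act on the product of Enpp2, 7 had enough counts. Lpar2, a receptor, was at least 4-fold higher at passage 9 in DPCs, by 2.06 (1.66 to 2.55), and its change in DSCs was 1.04 (0.69 to 1.44). Of the 7, 0 were 4-fold lower in either cell type. The other 2, Lpar3 and Lpar5, named after their values were seen, are receptors with too few counts for that tally. Lpar3 had 8 counts in passage 3 DPCs, 11 in passage 3 DSCs and 0 in both passage 9 libraries. Lpar5 had 10 counts in passage 3 DPCs, 0 in passage 9 DPCs, 3 in passage 3 DSCs and 7 in passage 9 DSCs. Of 8 genes of phosphate and pyrophosphate handling, the substrates and products of Alpl among them, Ank and Spp1 were at least 4-fold higher in DPCs, by 2.25 and 2.40, and Spp1 in DSCs, by 2.24. Alpl itself stayed at 23 counts or fewer. Of 9 leptin signalling genes 8 had enough counts and 0 were 4-fold apart with passage in either cell type, and the ligand gene Lep had 0 counts in every library.

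Of 11 genes of natriuretic peptides and the agouti axis, 7 had enough counts. In DPCs Pcsk6, a proprotein convertase that cleaves Corin, was higher at passage 9 by 3.22, from 2440 to 22162 counts. Nppb, a natriuretic peptide gene and named because it was the only one lower, went from 32 counts to 0 in DPCs, and 0 genes of that list passed 4-fold in DSCs. Of 4 partners and relatives of Prom1, 3 had enough counts and 0 were 4-fold apart with passage. Of 10 relatives of the marker genes, 4 had enough counts. Lifr, a cytokine receptor related to Lepr, was higher in DPCs at passage 9 by 2.68, and 0 passed in DSCs. The alkaline phosphatase genes Alpi, Alppl2 and Akp3 had 0 counts in every library, so Alpl was the only alkaline phosphatase gene of the list with reads.

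Markers of other cells moved with passage in the same libraries. In bulk RNA, fewer cells of a type and less RNA per cell cannot be told apart. The summed level of 7 Schwann cell genes was 11.2 CPM in passage 3 DPCs, 6.35 in passage 9 DPCs, 23.1 in passage 3 DSCs and 10.9 in passage 9 DSCs, with Sox10 and Cdh19 at 0 in both passage 9 libraries. That of 7 immune genes was 36.5, 10.8, 44.0 and 17.8 CPM in the same order, and that of 6 endothelial genes between 0.111 and 2.69. Of the 9 keratinocyte genes, Krt5, Krt14, Krt15, Krt1 and Cdh1 were at 0 in all libraries, as were 4 of 5 melanocyte and 4 of 5 adipocyte genes. The keratinocyte desmosome gene Dsp had 10 counts in passage 3 DPCs, 184 in passage 9 DPCs, 84 in passage 3 DSCs and 2307 in passage 9 DSCs. The other keratinocyte genes with enough counts, Krt10 and Trp63, had log2 changes of -0.82 (-1.51 to -0.22) and -0.48 (-1.86 to 0.70) in DPCs and of -0.13 (-0.70 to 0.43) and 0.87 (0.05 to 1.94) in DSCs. The summed levels of the Schwann, immune and endothelial lists were lower at passage 9, where Ptn, Mdk and Enpp2 were higher in DPCs, and their part in the values of the marker genes was not tested. Among 9 dermal sheath and smooth muscle genes with enough counts, Myh11, Mylk and Actg2 were at least 4-fold lower in DPCs at passage 9, with a list median of -1.69, and 0 passed in DSCs, with a median of 0.22. Of 9 fibroblast genes, Col1a1, Col3a1 and Lum were at least 4-fold lower in DPCs at passage 9, against 4.36% of all genes, with a list median of -1.31. In DSCs Lum and Dcn were at least 4-fold higher, against 2.67%, with a median of 0.23. Lum had 109 counts in passage 9 DSCs and 8 or fewer in every other library. It reached the count minimum only through passage 9 DSCs, so its place in these tallies is a description.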

How the data were processed

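RNA-seq of 4 libraries was taken from the deposited files. The authors deposited raw counts per gene, which are not normalized, and FPKM values, which the authors normalized for transcript length and depth. The submitters' processing notes name Bowtie 0.12.2 and the builds mm8 and mm9 without a role, while 51633 of 51826 IDs are in GENCODE M21 (GRCm38) and 94.1% of those have the same position there. The counting program and its use of strand were not given in the sources used here. The labels name an Illumina TruSeq kit and total RNA, and the study's methods a NEBNext Ultra kit with poly-T selection.

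Counts were scaled by TMM in edgeR 4.0.16 (R 4.3.3, limma 3.58.1), and log2 changes were taken between log2 CPM values (prior count 2). Genes whose raw counts averaged at least 10 were kept. DESeq2 1.42.0 was the alternative test. Intervals are exact Clopper-Pearson (ratios, from how the reads of 2 libraries divide between them) and exact Poisson (levels) at 95% in scipy 1.17.1, and the difference of 2 changes used the counting error of 4 counts. Intervals and the floor of 3 counts (6 where both mates were counted) cover counting error only. The floor was between 0.0658 and 0.0836 CPM.

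The marker genes and all lists were chosen with earlier results of these data known. Genes named from lists were those at least 4-fold apart with passage and with a mean of at least 100 counts, at most 4 per list. Others were named after their values were seen, where a count covered few genes. Likeness named the 3 nearest genes per marker, of which 1 is not reported here. Alternatives were other scalings (DESeq2 size factors, total counts, upper quartile), prior counts of 0.5 and 10, no filter, a minimum mean of 100, log2 FPKM with pseudocounts of 0.1 and 1, and halved counts. Their effects are given in the closing section.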

Additional observations from a re-analysis of the deposited data

Results flagged for a closer look

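Enpp2 was higher at passage 9 in the DPC libraries and lower in the DSC libraries. Its log2 changes of 2.99 and -1.49 lay 4.49 apart. Alpl had changes of 0.30 and -1.85, which lay 2.14 apart, and the interval of the change in DPCs included 0. Alpl reached the count minimum only through passage 3 DSCs, so its lower value in passage 9 DSCs is a description. With halved counts the interval of the difference for Alpl, -0.34 to 4.63, included 0. Both are given because the values in DPCs and DSCs had opposite signs, although for Alpl no direction was resolved in DPCs. With 1 library per group the difference between the cell types was not tested.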

How the results depend on the processing

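No paired analysis was possible because each group had 1 library and the labels give no replicate numbers, and for the same reason no library could be left out in turn. Among summary values under alternatives, 51 stayed within 1.5 times the value in the report and 9 moved. Of single-gene values, 118 stayed within their counting interval and 10 moved, all but 1 of them with deposited FPKM, for example Alpl in DSCs to -0.28 and Mdk in DPCs to 2.27 with a pseudocount of 1. No single-gene value changed sign in 112 comparisons. With a minimum mean of 100 counts, where only Ptn was left to count, 1 marker was 4-fold apart with passage in DPCs (3 in the report) and 1 between the cell types at passage 9 (2 in the report). Passage in DSCs gave 0 markers, but 1 with a prior count of 0.5 and 2 without a filter, and the cell types at passage 3 gave 0, but 1 without a filter. With log2 FPKM and a pseudocount of 1, 1 marker was 4-fold apart at passage 9, and Enpp2 was under 4-fold in both comparisons, at 1.28 with passage in DPCs and 1.42 between the cell types, since a pseudocount of 1 is near its levels. With halved counts, 2 intervals at passage 3 left out 0 where 4 did over all 7 markers. DESeq2's Wald test called 1 marker, Ptn, for passage and 1 for cell type, where edgeR called 0. The largest shift of the median of all genes was 0.10, for FPKM with a pseudocount of 0.1 between the cell types at passage 9. Depth limits Alpl, Lepr, Prom1 and Corin, which had at most 23 counts in any library.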
